A study of Mus musculus with 104 samples.

Results

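The genes whose symbol is Gpr followed by a number and at most 1 letter are G protein-coupled receptors, most of them without an agreed natural ligand, together with a few membrane proteins that were given the same kind of name. Each gene was read through its own probe set, and where several probe sets carried the symbol the brightest over all arrays was used. The rule gave 59 of the 18193 genes measured, from 91 probe sets in all. RefSeq lists 76 mouse symbols of this form, and the other 17 were not analysed here.

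The study profiled RNA from 52 regions of the adult male mouse nervous system and its glands, with 2 arrays for each region and no further treatment or genotype. All groups were Balb/c males aged 7 to 8 weeks, kept under 12 h light and 12 h dark, with tissue taken in that cycle or in constant darkness; the labels do not say which animals had which. Tissue was punched from 0.5 mm slices every 4 h over 1 day, and the 6 time points of a region were pooled before RNA extraction, so no array holds a single animal or hour. The design states that each region was sampled independently on 2 occasions, but not which animals went into each pool, and the p-values below measure the spread between such pools. Levels are log2 array intensities, so a difference of 1 is a 2-fold difference. Levels of different genes are not compared with each other, because each probe set has its own brightness.

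Receptors of this kind sit in the membrane, and on binding a ligand they switch on a heterotrimeric G protein inside the cell, which raises or lowers messengers such as cyclic AMP or calcium. Orphan receptors have the same architecture but no settled ligand, and several signal without any. Many are abundant in the brain, where they have served as markers of particular neurons and glia and are followed as possible drug targets because of their narrow distribution.

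Correlation between the 2 arrays of a region ran from 0.972 to 0.998 over all genes, with the lowest value in the retina. The marker lists were highest where the labels place them for striatal, habenular, pineal, photoreceptor and pituitary cells. The retina arrays also held anterior pituitary markers, 7 of 8 measured, at a mean level of 12.05, against 13.94 in the pituitary, and growth hormone (Gh) at 14.76 and 14.61, so values for the retina below come from libraries that go against their label in part. Some hypothalamic labels did not match their defining genes. Melanin-concentrating hormone (Pmch) was 7.66 and 7.73 in the library labelled lateral hypothalamus and 13.93 and 14.03 in that labelled dorsomedial hypothalamus. Nr5a1, which marks the ventromedial nucleus, was 9.18 and 9.27 in the library labelled dorsal subparaventricular zone and 8.49 and 8.51 in the ventromedial hypothalamus itself.

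Most of these receptors differed between regions. Of the 59, 42 passed a moderated F test over the 52 region means at an adjusted p under 0.05 with a range of at least 2-fold, which is 71.2% of them against 60.3% of all genes (limma, Benjamini-Hochberg over all 18193 genes). The median range over regions was 1.71 on the log2 scale for the receptors and 1.24 for all genes. Wide ranges made up a larger share of the receptors than of all genes. Counting genes that passed the test and rose above the median array value of 7.39 in at least 1 region, a range of at least 3 was reached by 15 of the 59 receptors (25.4%) and by 13.4% of all genes. A range of at least 4, which is 16-fold, was reached by 7 (11.9%) and by 6.45% of all genes. The 7 were Gpr6 with a range of 7.03, Gpr151 with 6.37, Gpr37 with 6.09, Gpr161 with 5.06, Gpr22 with 5.01, Gpr83 with 4.23 and Gpr101 with 4.02. Among the 39 receptors that met these limits, 23 had both arrays of their highest region above every other array (59.0%, against 51.8% of all such genes). A punch from a region holds many cell types, and fewer cells of a type cannot be told apart from less RNA per cell.

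**Figure D1:**
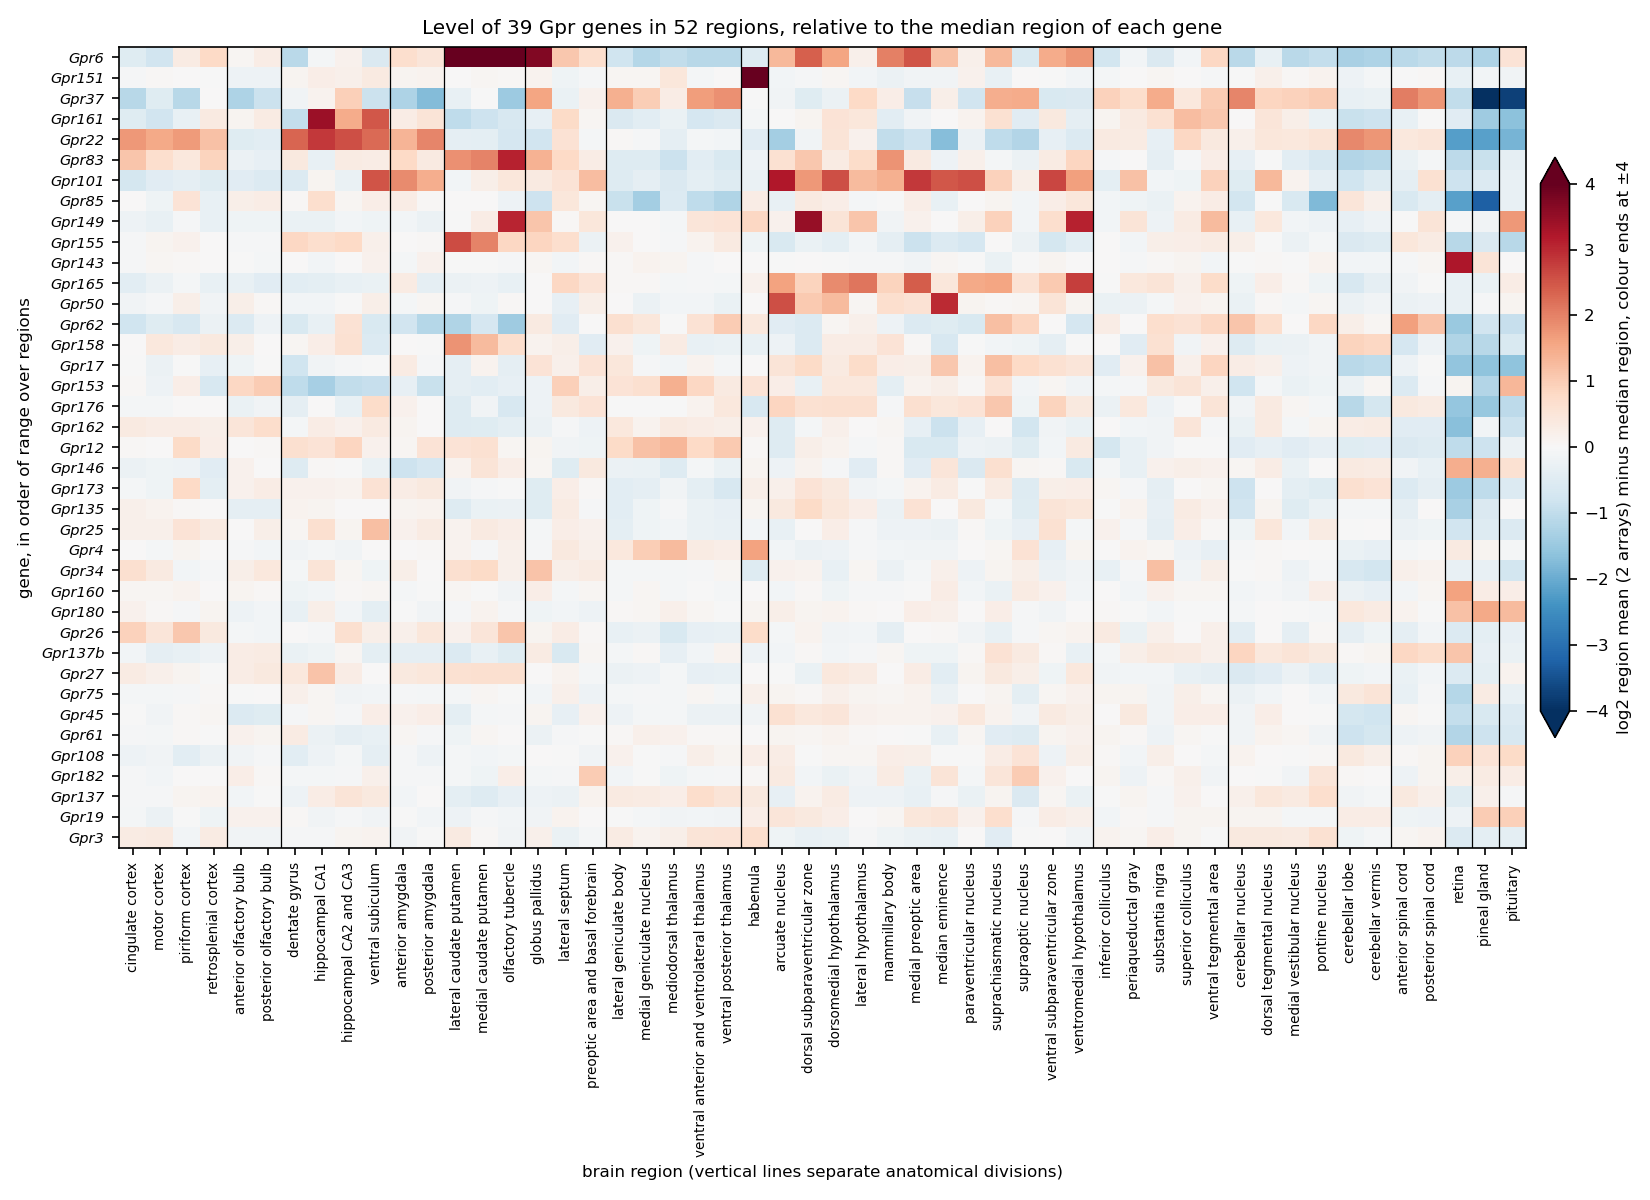
Rows are the 39 Gpr genes that passed the F test and exceeded the median array value in at least 1 region, in order of range, and columns are the 52 regions grouped by anatomical division. Colour gives the log2 mean of 2 arrays minus that gene's median region, with colours ending at 4 above or below. Single dark cells mark Gpr151 in the habenula and Gpr143 in the retina, blocks mark Gpr6 in the striatum and Gpr22 in the hippocampal formation, and the retina and pineal gland columns hold many blue cells, with 17 and 11 lower calls.

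The 52 regions were gathered into 16 anatomical divisions, and each division was set against the mean of all regions outside it. A receptor was called there when the adjusted p was under 0.05 and the difference at least 2-fold. By this rule 21 receptors were higher in at least 1 division (35.6%, against 28.3% of all genes) and 19 were lower in at least 1 (32.2%, against 15% of all genes). The 4 receptors called higher in the striatum made up 6.78% of the receptors where 2.4% of all genes were called, and the 3 in the hypothalamus 5.08% where 0.973% were. No receptor was called higher in the olfactory bulb or the midbrain by this rule, where 2.81% and 0.445% of all genes were called. With no fold threshold 11 and 13 receptors passed there at an adjusted p under 0.05. The share of all genes at that setting was not computed, so these 2 counts are not read as a result about the receptors. Low values gathered outside the brain proper: 17 receptors (28.8%) were lower in the retina where 8.24% of all genes were, and 11 (18.6%) in the pineal gland where 7.61% were. The pituitary had 6 lower calls (10.2%, against 6.99% of all genes) and the cerebellar cortex 4 (Gpr101, Gpr17, Gpr6 and Gpr83, 6.78% against 2.53%). Within the rest of the brain there were 2 in the thalamus (Gpr101 and Gpr6, against 1.01% of all genes) and 2 in the olfactory bulb (Gpr101 and Gpr37, against 0.929%). The striatum (Gpr62, 2.04% of all genes), the amygdala (Gpr37, 1.06%), the hindbrain with cerebellar nuclei (Gpr6, 0.522%), the spinal cord (Gpr6, 0.643%) and the cerebral cortex (Gpr101, 0.671%) had 1 each. The hippocampal formation (Gpr153, 0.813%) and the hypothalamus (Gpr22, 0.544%) also had 1 each. The septum, pallidum and basal forebrain had 0, where 0.0824% of all genes were called lower. The habenula and the midbrain also had 0, against 0.896% and 0.115% of all genes. Gpr101 and Gpr6 were at or above the median array value in only 9 and 10 regions. Their lower calls set dim levels against means that hold their bright regions.

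**Figure D2:**
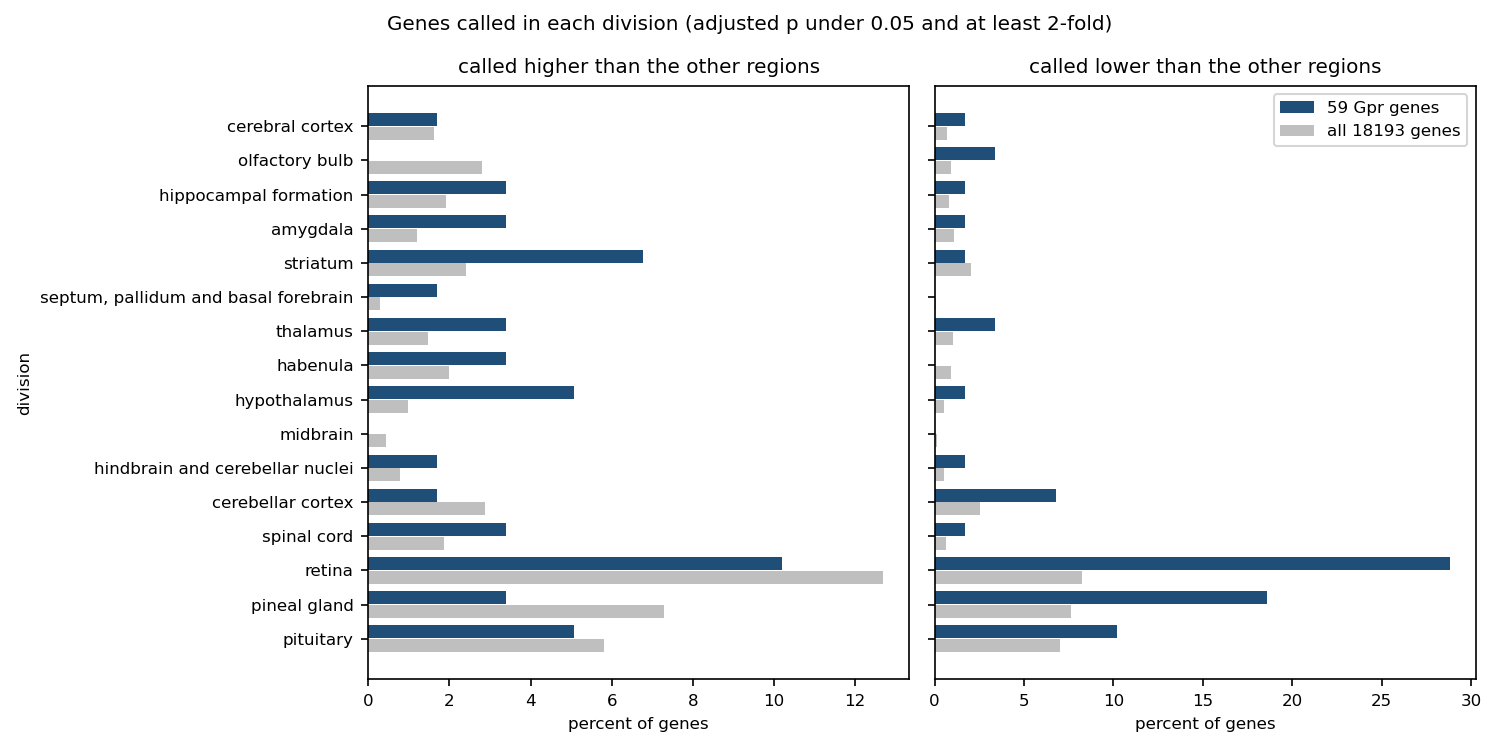
Horizontal bars give the percent of the 59 Gpr genes (dark) and of all 18193 genes (grey) called higher (left) or lower (right) in each of 16 divisions than in the regions outside it. The dark bar is longest for lower calls in the retina, at 28.8% against 8.24%, and the dark bar exceeds the grey for higher calls in the striatum, at 6.78% against 2.4%.

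In the striatum 4 receptors were higher: Gpr6, Gpr83, Gpr155 and Gpr158. Gpr6 belongs with Gpr3 and Gpr12 to a trio of receptors that raise cyclic AMP without an added ligand, Gpr83 has been proposed as a receptor for the neuropeptide PEN, Gpr155 is a lysosomal cholesterol sensor, and Gpr158 is a class C receptor that binds glycine and partners an RGS protein. The 250 bases before the RefSeq start of each gene are printed here, on the gene's own strand, because these 4 genes were high in the same division. In GRCm38.p6 they lie at chr10:41072291-41072540 on the minus strand for Gpr6, chr9:14859960-14860209 on the plus strand for Gpr83, chr2:73386481-73386730 on the minus strand for Gpr155 and chr2:21367317-21367566 on the plus strand for Gpr158. Capitals mark matches on either strand to a cyclic AMP response element (TGACGTCA), an E-box (CACGTG), a GC box (GGGCGG) or a TATA box (TATAAA).
Gpr6: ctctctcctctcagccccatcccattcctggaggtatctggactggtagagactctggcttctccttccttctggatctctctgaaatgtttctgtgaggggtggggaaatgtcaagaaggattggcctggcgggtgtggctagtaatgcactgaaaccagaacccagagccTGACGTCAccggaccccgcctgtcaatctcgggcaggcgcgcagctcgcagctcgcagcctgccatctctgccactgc
Gpr83: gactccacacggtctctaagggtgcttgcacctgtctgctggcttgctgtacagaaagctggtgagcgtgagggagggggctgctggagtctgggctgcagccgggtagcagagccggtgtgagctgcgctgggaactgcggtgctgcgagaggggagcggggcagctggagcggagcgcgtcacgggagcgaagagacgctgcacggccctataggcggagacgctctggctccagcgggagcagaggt
Gpr155: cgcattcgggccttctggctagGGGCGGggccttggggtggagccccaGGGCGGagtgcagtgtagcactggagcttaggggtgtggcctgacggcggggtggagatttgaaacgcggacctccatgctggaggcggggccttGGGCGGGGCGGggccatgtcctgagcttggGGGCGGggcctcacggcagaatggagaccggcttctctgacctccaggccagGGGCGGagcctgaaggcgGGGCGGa
Gpr158: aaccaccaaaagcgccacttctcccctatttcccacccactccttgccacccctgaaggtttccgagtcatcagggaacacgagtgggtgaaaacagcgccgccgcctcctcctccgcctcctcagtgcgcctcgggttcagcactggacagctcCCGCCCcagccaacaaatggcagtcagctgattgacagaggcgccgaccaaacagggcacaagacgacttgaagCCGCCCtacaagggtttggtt
Gpr6 was the only 1 of these 4 with the cyclic AMP response element, 78 bases before its start, which 1.55% of all 32851 windows of this length held. The GC box had 7 matches before Gpr155, of which a pair overlapped, and 2 before Gpr158, and 32.7% of all windows held at least 1. The window of Gpr83 held none of the 4 motifs, and no window of the 4 genes held the E-box (6.02% of all windows) or the TATA box (12.4%). A match is a string of letters and does not show that a factor binds.

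Gpr6 reached 11.66 and 11.88 in the medial caudate putamen, 11.63 and 11.88 in the lateral caudate putamen, and 11.05 and 10.99 in the olfactory tubercle. The arrays of the medial and lateral caudate putamen overlapped, and those of the olfactory tubercle lay below both. The globus pallidus followed at 9.62 and 9.88 and the medial preoptic area at 8.74 and 8.36, while the cerebellar lobe read 4.81 and 4.67. Gpr6 was at or above the median array value in only 10 regions, and its median region was 6.05. Its mean over all arrays was 6.45, so the divisions where Gpr6 was called lower were dim, and no order is read among dim regions. The striatum exceeded the other regions by 5.37 ± 0.11 (SE, 41.5-fold, limma adjusted p = 3.94e-47). Outside the striatum Gpr6 was called higher in the group of septum, pallidum and basal forebrain by 1.50 ± 0.11 (0.28% of all genes were) and in the hypothalamus by 1.14 ± 0.06. The level of the spiked hybridisation control RNAs split the regions into a low and a high set, and the hypothalamic difference was 0.62 among the 30 regions with high controls. The call in the septum, pallidum and basal forebrain rested on the globus pallidus, and its adjusted p was 0.157 when region means were taken as the samples. The globus pallidus was also the region with the highest medium spiny neuron list outside the striatum, as given below.

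Gpr83 had its peak in the olfactory tubercle, at 11.92 and 11.85, above all other arrays. The medial caudate putamen had 10.78 and 10.83, the lateral caudate putamen 10.59 and 10.72, and the mammillary body 10.35 and 10.88, and these 3 regions overlapped. The lowest region for Gpr83 was the cerebellar lobe at 7.70 and 7.61. For Gpr83 the striatum exceeded the other regions by 2.23 ± 0.05 (4.70-fold, limma adjusted p = 1.15e-43). A second probe set of Gpr83 gave the same highest region, at a mean of 11.23, and correlated with the first at 0.96 over the 52 regions.

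Gpr155 and Gpr158 ran the other way within the striatum, with the lateral caudate putamen highest. Gpr155 had 11.90 and 11.81 in the lateral caudate putamen, 11.29 and 11.17 in the medial caudate putamen, and 10.04 and 10.12 in the olfactory tubercle, which the globus pallidus overlapped at 9.97 and 10.25. Gpr158 had 10.22 and 10.12 laterally, 9.55 and 9.70 medially, and 8.92 and 9.13 in the olfactory tubercle, below the cerebellar lobe at 9.24 and 9.27. For both genes the arrays of the lateral and medial caudate putamen did not overlap. The striatum exceeded the other regions by 1.87 ± 0.07 for Gpr155 and by 1.30 ± 0.07 for Gpr158 (limma adjusted p = 2.96e-34 and 5.80e-24). Both probe sets of Gpr158 were highest in the lateral caudate putamen.

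Medium spiny neurons, the inhibitory projection neurons of the striatum, were tracked with 9 of 12 listed markers that do not bear a Gpr name. Their mean level was 12.68 in the lateral and 12.61 in the medial caudate putamen, 12.48 in the olfactory tubercle and 11.32 in the globus pallidus, and lowest in the pineal gland at 8.15. Over the 52 region means, which come from the same arrays, the list correlated with Gpr6 at 0.86, with Gpr83 at 0.76 and with Gpr155 at 0.69. The rank correlations were lower, at 0.72, 0.68 and 0.28. The list was nearly level over the 3 striatal regions while Gpr83 was 1.08 higher in the olfactory tubercle than in the next region. The part of cell number in these differences was not tested. The genes whose pattern was most like Gpr6 over the 52 regions were Rgs9 (r = 0.905), Adcy5 (0.836) and Bcr (0.827), all highest in the medial caudate putamen. For Gpr83 they were Ppp1r9a (0.834), Ngef (0.828) and Gpr6 (0.824), and for Gpr155 Strn (0.843), Dgki (0.831) and Ppp1r7 (0.826).

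The other members of the Gpr6 trio had different maps. Gpr12 was highest in the mediodorsal thalamus at 10.60 and 10.53, overlapping the medial geniculate nucleus at 10.54 and 10.29, and followed by the ventral posterior thalamus at 10.25 and 10.28. The thalamus exceeded the other regions by 1.10 ± 0.04 for Gpr12 (limma adjusted p = 2.93e-35), while Gpr6 fell by 1.58 ± 0.09 there and Gpr3 stood 0.34 ± 0.05 higher, short of 2-fold. All 3 probe sets of Gpr12 put the mediodorsal thalamus first. Gpr3 had the smallest range of the 39, with 8.32 and 8.47 in the habenula, 8.18 and 8.47 in the pontine nucleus, and 6.97 and 7.37 in the retina. In the striatum Gpr3 differed from the other regions by 0.06 ± 0.06 (adjusted p = 0.450). Over the 52 regions the trio correlated with each other at -0.23 for Gpr3 and Gpr6, 0.13 for Gpr6 and Gpr12 and 0.33 for Gpr3 and Gpr12.

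In the habenula, a small paired nucleus above the thalamus that links forebrain to midbrain monoamine centres, Gpr151 and Gpr4 were higher. Gpr151, an orphan receptor long used to mark habenular neurons and their axons, had 11.26 and 10.91 there. No other region came near: the next, the mediodorsal thalamus beside it, had 5.48 and 5.46, and the median region was 5.02. The habenula exceeded the other regions by 6.07 ± 0.07 (67.1-fold, limma adjusted p = 2.91e-60). The 51 other regions lay between 4.72 and 5.47, all below the median array value, so no order is read among them. Clec18a (r = 0.962), Htr5b (0.925) and Vsig8 (0.923) were the genes most like Gpr151 over the 52 regions, and each was highest in the habenula. The habenular marker list, without Gpr151, had its highest level there at 12.19, next to 9.30 in the library labelled dorsomedial hypothalamus.

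Gpr4, a proton-sensing receptor known mostly from blood vessel endothelium, was called higher in the habenula by 1.56 ± 0.08 (limma adjusted p = 2.16e-24; 2% of all genes were called higher there). Its arrays read 9.84 and 9.69 in the habenula, 9.49 and 9.37 in the mediodorsal thalamus, and 9.31 and 8.97 in the medial geniculate nucleus. The habenular arrays of Gpr4 lay above all others, but the step to the thalamus was small, and its lowest region, the ventral tegmental area, had 7.87 and 7.75. The endothelium and pericyte list had its highest levels elsewhere, at 10.61 in the retina and 9.82 in the supraoptic nucleus. Of the other proton sensors, Gpr65 and Gpr132 were both below the median array value in every region.

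**Figure D3:**
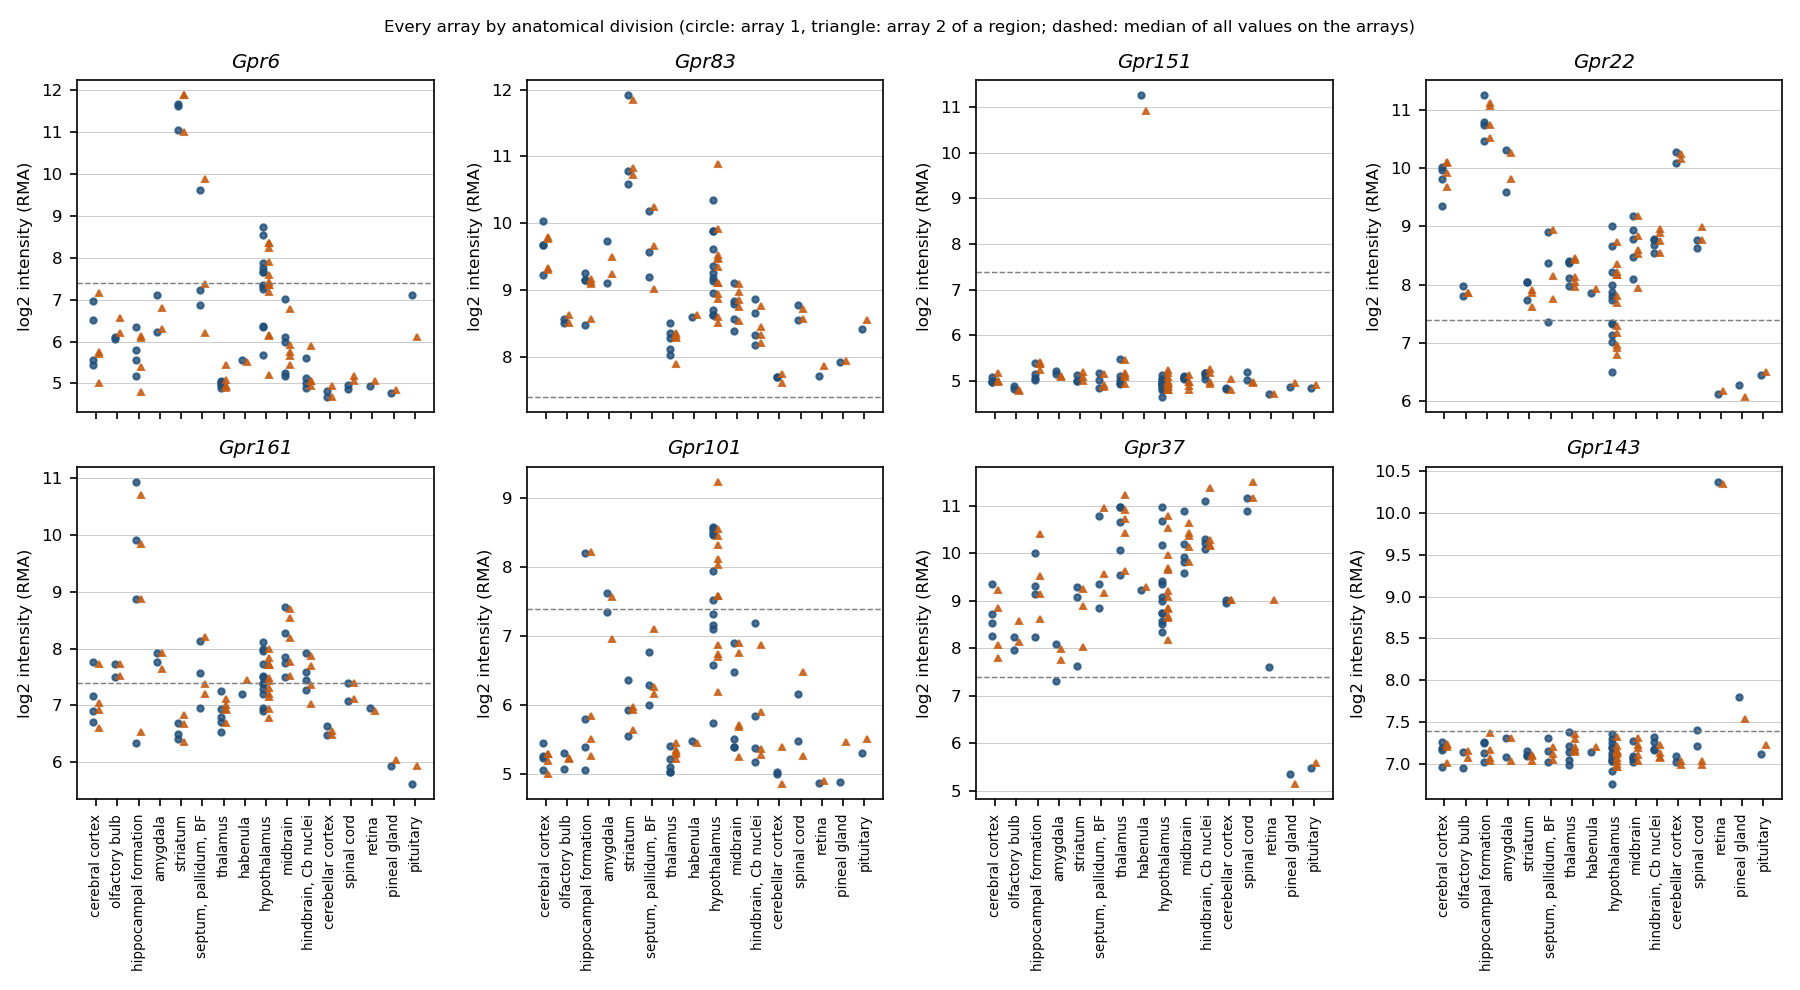
Each panel is 1 receptor, with the log2 intensity of every array on the vertical axis and the 16 divisions along the horizontal axis. Circles are the first and triangles the second array of a region, and the dashed line is the median of all values, 7.39. Gpr151 is above the line only in the habenula, at 11.26 and 10.91, Gpr6 has its highest arrays in the striatum, and Gpr37 falls to between 5.14 and 5.59 in the pineal gland and pituitary.

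The hippocampal formation held the peaks of 6 of the 39 receptors (15.4%, against 8.59% of all such genes), and Gpr22 and Gpr161 were called higher there, where 1.91% of all genes were. Gpr161, a receptor of the primary cilium that represses Hedgehog signalling, split the formation. It had 10.94 and 10.71 in CA1, 9.91 and 9.85 in the ventral subiculum and 8.87 and 8.87 in CA2 and CA3, but 6.33 and 6.53 in the dentate gyrus, rank 49 of the 52 regions. The superior colliculus (8.73 and 8.54) and the ventral tegmental area (8.27 and 8.70) followed. For Gpr161 the formation as a whole exceeded the other regions by 1.72 ± 0.05 (limma adjusted p = 1.10e-38), a value that averages a peak with a trough. A second probe set of Gpr161 stayed under the median array value everywhere, and with the mean of both sets the difference was 0.96. In the 30 regions with high hybridisation controls, where the dentate gyrus alone stands for the formation, the difference was -0.82. The regions named here with high levels of Gpr161 were all in the low-control set, at control levels of 9.93 to 10.15. The dentate gyrus was in the high set, at 11.03. Within the low-control regions alone the call for Gpr161 in the formation held. The part of the control level in the split was not tested. Genes most like Gpr161 were Fibcd1 (r = 0.731), Htr1a (0.725) and Exoc6b (0.724), each highest in CA1.

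Gpr22, an orphan receptor of brain and heart, was high in the dentate gyrus as well. Its arrays read 11.25 and 11.07 in CA1, 10.73 and 11.11 in CA2 and CA3, 10.79 and 10.52 in the dentate gyrus and 10.47 and 10.74 in the ventral subiculum, with neighbours overlapping throughout. The formation exceeded the other regions by 2.50 ± 0.06 (5.66-fold, limma adjusted p = 9.64e-43). Gpr22 was also the 1 receptor called higher in the cerebral cortex (by 1.45 ± 0.06, with 1.61% of all genes called) and in the cerebellar cortex (by 1.73 ± 0.08, with 2.87%), and it was called higher in the amygdala by 1.53 ± 0.08 (1.21%). In the hypothalamus Gpr22 fell by 1.07 ± 0.04 (0.544% of all genes), with 6.51 and 6.79 in the median eminence. A second probe set of Gpr22 was highest in the cerebellar lobe and correlated with the first at 0.88. The list of cortical projection neuron markers, with 6 of 7 measured, correlated with Gpr22 at 0.75 over the 52 regions.

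Gpr25 and Gpr27 peaked in the same formation with smaller ranges and without a call. Gpr25 had 9.19 and 9.12 in the ventral subiculum and 8.78 and 8.41 in CA1, and the arrays of the ventral subiculum were above all others. Gpr27 had 9.22 and 9.18 in CA1, above the olfactory tubercle at 8.60 and 8.83. Gpr27 forms with Gpr85 and Gpr173 a small group of receptors with highly conserved sequence that are expressed in brain. Gpr85 was also highest in CA1, at 10.08 and 9.95, just above the piriform cortex at 9.92 and 9.83, and it stayed within 2-fold of its peak in 39 of 52 regions. Another probe set of Gpr85 was highest in CA1 too. A further set was highest in the ventromedial hypothalamus, at a mean of 9.98 against 9.74 in CA1, and a dim set did not follow the first (r = -0.02). Gpr173 had 8.55 and 8.74 in the piriform cortex and 8.48 and 8.47 in the cerebellar lobe. In the retina all 3 were lower than in the other regions: Gpr85 fell by 2.01 ± 0.12, Gpr173 fell by 1.43 ± 0.08 and Gpr27 fell by 0.61 ± 0.09, the last short of 2-fold. In the pineal gland, with 6.04 and 6.13, Gpr85 fell by 3.10 ± 0.12 (8.57-fold, limma adjusted p = 3.93e-33). Over the 52 regions Gpr85 correlated with Gpr173 at 0.82, and Gpr27 with Gpr85 at 0.53 and with Gpr173 at 0.41.

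The hypothalamus held the peaks of 9 of the 39 receptors (23.1%, against 13.8% of all such genes), and Gpr101, Gpr165 and Gpr6 were called higher over its 12 regions. Gpr101 couples to cyclic AMP production, and its duplication in people causes a form of gigantism through excess growth hormone. Gpr165 is an orphan receptor, and Gpr50 is a relative of the melatonin receptors that does not bind melatonin and is known from tanycytes, the cells lining the floor of the third ventricle. Gpr6 lies on chromosome 10, while Gpr101, Gpr165 and Gpr50, chosen from the 9 that peak here, all lie on the X chromosome. The chromosomes of the others that peak here were not compared, so no pattern is read from this location. The 250 bases before their RefSeq starts are shown because these genes peak in the same division, at chrX:57503758-57504007 on the minus strand for Gpr101, chrX:96713218-96713467 on the plus strand for Gpr165 and chrX:71663417-71663666 on the plus strand for Gpr50 in GRCm38.p6, with capitals for the same 4 motifs.
Gpr101: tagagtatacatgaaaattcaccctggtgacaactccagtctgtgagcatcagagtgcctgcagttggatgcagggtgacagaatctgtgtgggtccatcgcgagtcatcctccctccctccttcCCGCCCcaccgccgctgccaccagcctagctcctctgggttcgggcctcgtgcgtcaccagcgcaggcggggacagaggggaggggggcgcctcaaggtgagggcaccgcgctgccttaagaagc
Gpr165: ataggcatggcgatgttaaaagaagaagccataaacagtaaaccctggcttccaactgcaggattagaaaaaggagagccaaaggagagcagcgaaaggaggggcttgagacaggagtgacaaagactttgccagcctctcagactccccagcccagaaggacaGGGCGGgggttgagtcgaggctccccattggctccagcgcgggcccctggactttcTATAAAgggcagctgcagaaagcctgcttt
Gpr50: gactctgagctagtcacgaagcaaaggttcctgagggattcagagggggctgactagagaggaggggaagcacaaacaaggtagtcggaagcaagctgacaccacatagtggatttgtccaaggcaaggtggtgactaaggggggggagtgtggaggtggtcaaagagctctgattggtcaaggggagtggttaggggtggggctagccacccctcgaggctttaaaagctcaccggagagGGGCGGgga
Each of these windows held 1 GC box. Gpr165 alone held the TATA box, 30 bases before its start, and none held the cyclic AMP response element or the E-box.

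Gpr101 was highest in the arcuate nucleus, at 8.58 and 9.24, above the medial preoptic area at 8.53 and 8.56 and the ventral subparaventricular zone at 8.47 and 8.32. Within the hypothalamus the supraoptic nucleus was below the median array value, at 5.74 and 6.19. Outside it, the ventral subiculum had 8.21 and 8.23 and the anterior amygdala 7.63 and 7.57, while 40 regions outside the hypothalamus had a median of 5.39. The hypothalamus exceeded the other regions by 1.93 ± 0.04 (3.80-fold, limma adjusted p = 1.71e-44) and the amygdala by 1.22 ± 0.10. The amygdala call had an adjusted p of 0.155 with region means as the samples. Gpr101 was called lower in the thalamus, cerebral cortex, cerebellar cortex, olfactory bulb, retina and pineal gland, with differences from -1.03 to -1.33. It was at or above the median array value in only 9 regions, and its median region was 5.72. Its mean over all arrays was 6.20, under the median array value, so the divisions called lower were dim. Their calls give a distance from means that hold the bright hypothalamic regions, and no order is read among dim regions. With region means as the samples 4 of these 6 lower calls were lost, with adjusted p = 0.174 in the olfactory bulb, 0.312 in the pineal gland, 0.0845 in the cerebellar cortex and 0.128 in the retina, and without the first pineal array the difference there was -0.75. Ngb (r = 0.874), Calcr (0.865) and Gzmk (0.860) had the patterns most like Gpr101.

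Gpr165 had 9.62 and 9.31 in the ventromedial hypothalamus, above every other array, and 9.13 and 9.12 in the medial preoptic area. The library labelled lateral hypothalamus had 8.59 and 9.12 for Gpr165 and that labelled dorsomedial hypothalamus 8.50 and 8.67. Of the 12 hypothalamic regions 10 had a Gpr165 mean above all 40 regions outside, whose highest was 7.53. The supraoptic nucleus and the median eminence were the exceptions. The difference was 1.53 ± 0.05 (2.89-fold, limma adjusted p = 2.30e-37), and it was called without the libraries labelled lateral hypothalamus and dorsal subparaventricular zone as well. Gabrq (r = 0.892) was the gene most like Gpr165, also with its peak in the ventromedial hypothalamus.

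Gpr50 had a narrower distribution. The median eminence had 9.28 and 9.64 and the arcuate nucleus 8.94 and 9.18, and the library labelled dorsomedial hypothalamus followed at 7.88 and 7.57. The arrays of the median eminence lay above all others. Region means outside the hypothalamus lay between 6.13 and 6.71 for Gpr50, under the median array value. Averaged over the 12 hypothalamic regions the difference was 0.90 ± 0.03 (1.87-fold, adjusted p = 5.81e-35), short of a call. A second, dimmer probe set of Gpr50 gave a wider range of 6.72, with 11.45 in the median eminence, and correlated with the first at 0.95.

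Gpr149, an orphan receptor, was above the median array value in 3 regions. Its arrays read 8.29 and 8.09 in the library labelled dorsal subparaventricular zone, 7.85 and 7.70 in the ventromedial hypothalamus and 7.76 and 7.73 in the olfactory tubercle, and the median region was 4.70. Nr5a1, the marker that stood out in the first of these libraries, was the gene most like it (r = 0.734). A second probe set of Gpr149 stayed below the median array value everywhere. Its mean was 6.55 in the olfactory tubercle and 6.49 in the library labelled dorsal subparaventricular zone, and it correlated with the first at 0.97. Gpr149 in the pituitary read 6.92 and 5.96, a difference of 1.42 ± 0.11 that was called but fell to 0.94 without the first pituitary array and had an adjusted p of 0.201 with region means as the samples.

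Gpr176, an orphan receptor of the circadian clock, was highest in the suprachiasmatic nucleus, the site of the central clock, at 9.60 and 9.56. The ventral subparaventricular zone had 9.35 and 9.44 and the arcuate nucleus 9.40 and 9.34. Both suprachiasmatic arrays of Gpr176 lay above all others, by a small step, and 22 of 52 regions were within 2-fold of them. The hypothalamus stood 0.67 ± 0.03 higher for Gpr176 and 0.37 ± 0.03 higher for Gpr45, which had 8.84 and 8.67 in the arcuate nucleus. A second probe set of Gpr45 was highest in the pontine nucleus, at a mean of 7.66. It had a range of 0.64, placed the arcuate nucleus at rank 38 and correlated with the first at 0.65. Gpr135 peaked in the library labelled dorsal subparaventricular zone at 9.57 and 9.48, followed by the medial preoptic area at 9.44 and 9.25. Over the 52 regions Gpr45 correlated with Gpr176 at 0.80 and with Gpr101 at 0.73, and Gpr101 with Gpr165 at 0.71. Time of day cannot be read here, since the 6 time points were pooled.

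**Figure D4:**
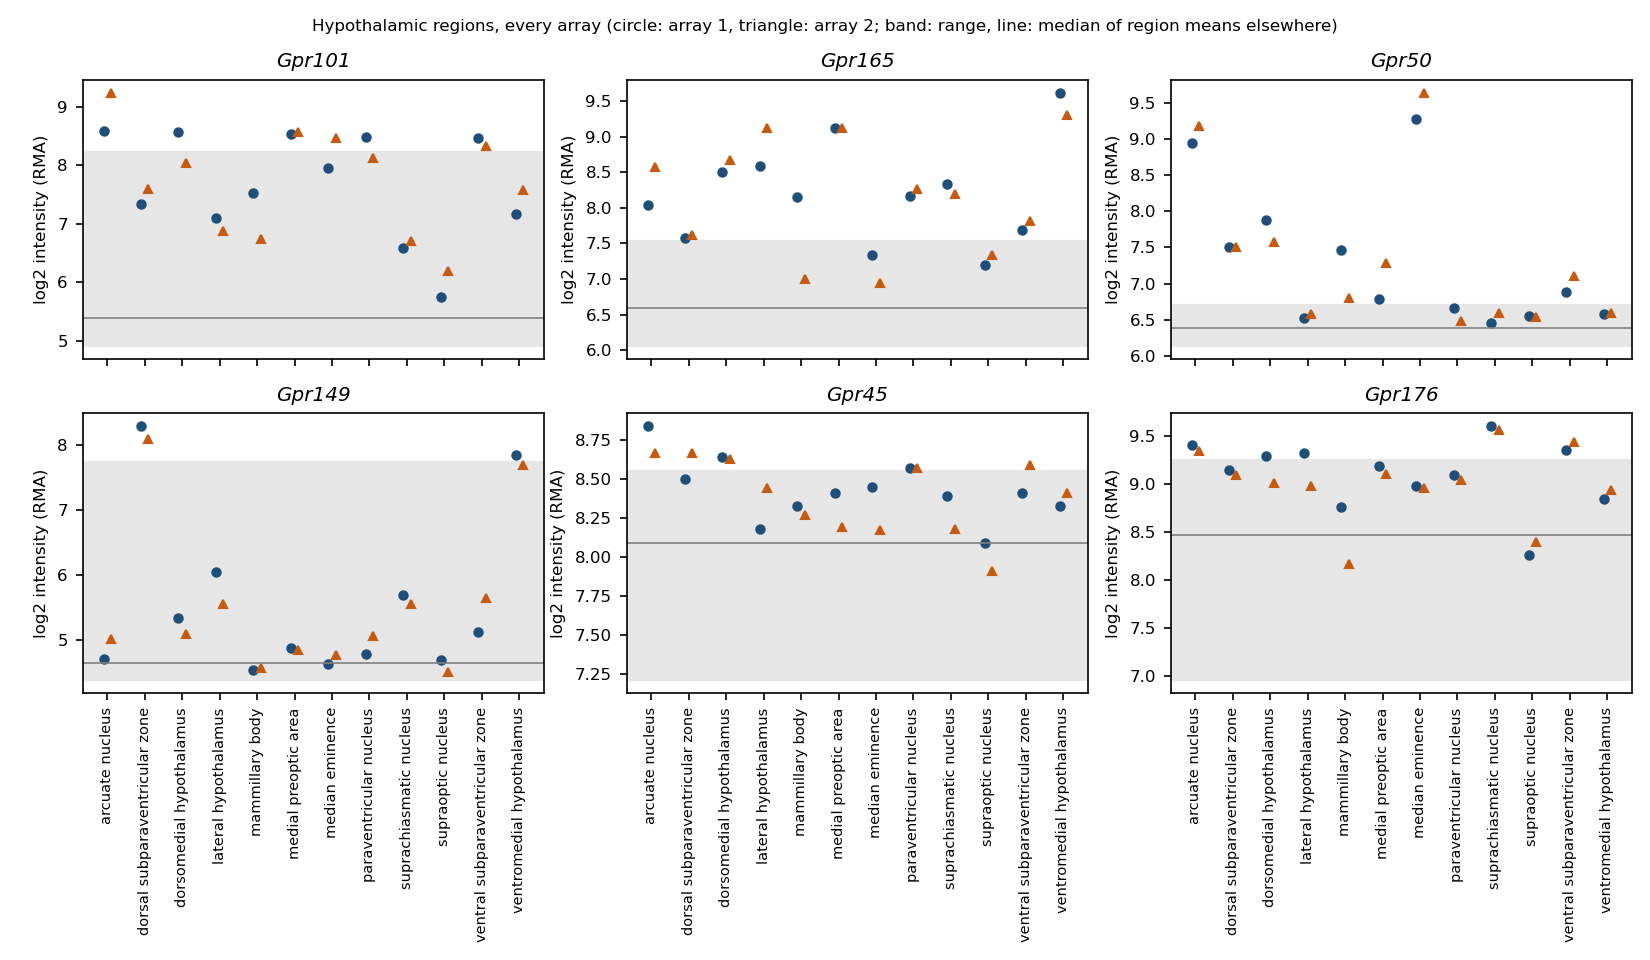
Each panel gives 1 receptor in the 12 hypothalamic regions, with the log2 intensity of both arrays (circle and triangle) on the vertical axis. The grey band spans the region means of the 40 regions outside the hypothalamus and the line is their median. Gpr165 is above the band in 10 regions, Gpr50 reaches 9.64 in the median eminence, and Gpr149 exceeds its band, which ends at 7.74, in 2 regions.

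Receptors of glia formed another group, led by Gpr37 and Gpr62. Gpr37, also called the parkin-associated endothelin-like receptor, is known from oligodendrocytes, and Gpr62 is an orphan receptor enriched in myelinating cells. Gpr37 had 11.17 and 11.51 in the anterior spinal cord, 11.10 and 11.37 in the cerebellar nucleus, 10.99 and 11.24 in the ventral posterior thalamus and 10.90 and 11.17 in the posterior spinal cord, all overlapping. At the other end it had 5.48 and 5.59 in the pituitary and 5.35 and 5.14 in the pineal gland, and within the brain 7.31 and 7.75 in the posterior amygdala. Gpr37 was called higher in the spinal cord by 1.94 ± 0.11 (1.87% of all genes), in the thalamus by 1.32 ± 0.07 (1.48%) and in the hindbrain with the cerebellar nuclei by 1.23 ± 0.08 (0.781%). In the pineal gland it fell by 4.16 ± 0.16 (17.9-fold, limma adjusted p = 3.15e-33) and in the pituitary it fell by 3.87 ± 0.16. The 2 retina arrays of Gpr37 read 7.60 and 9.01, and its lower call there fell to -0.34 (adjusted p = 0.0942) without the first.

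Gpr62 had 9.80 and 10.14 in the anterior spinal cord, above all others, 9.55 and 9.50 in the suprachiasmatic nucleus and 9.41 and 9.55 in the posterior spinal cord. The spinal cord exceeded the other regions by 1.50 ± 0.08 for Gpr62 (limma adjusted p = 4.29e-24), while in the striatum Gpr62 fell by 1.12 ± 0.07, with 6.80 and 6.97 in the olfactory tubercle. A second probe set of Gpr62 stayed below the median array value everywhere, and with the mean of both sets the spinal difference was 0.78. Gpr37 and Gpr62 correlated at 0.81 over the 52 regions.

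The level of both followed the myelin markers. The list of oligodendrocyte and myelin genes, with 11 of 12 measured, ran from 12.11 in the anterior spinal cord to 7.01 in the pineal gland and was 11.93 in the suprachiasmatic nucleus. It correlated with Gpr37 at 0.95 and with Gpr62 at 0.88 over the 52 regions, and at 0.95 and 0.89 over the 49 without retina, pineal gland and pituitary. Other glial lists moved with them as well: over the 52 regions the precursor list correlated at 0.83 with Gpr37 and 0.72 with Gpr62, and the astrocyte list at 0.77 and 0.69. The genes most like Gpr37 were Bcas1 (r = 0.969), Cnp (0.944) and Ermn (0.933), and those most like Gpr62 were Pacs2 (0.930), Fa2h (0.924) and Adamts4 (0.917). Cnp and Ermn are on the myelin list. How much of the difference in Gpr37 and Gpr62 between regions lies in the amount of oligodendrocyte RNA was not tested.

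Gpr17, a receptor that marks oligodendrocyte precursors on their way to maturity, had a flatter map. Its arrays read 10.09 and 10.50 in the suprachiasmatic nucleus, 10.43 and 10.14 in the substantia nigra and 9.94 and 10.40 in the median eminence, which overlapped. Gpr17 stayed between 7.42 and 7.60 in the pineal gland, pituitary and retina, where it was called lower with differences from -1.65 to -1.69, and it was 8.03 and 8.04 in the cerebellar lobe. The precursor list, of which 7 of 9 genes were used with Gpr17 left out, was 9.63 in the supraoptic and 9.58 in the suprachiasmatic nucleus and 7.47 in the pituitary. It correlated with Gpr17 at 0.79 over 52 regions and at 0.66 over the 49. The astrocyte list was also highest in the suprachiasmatic nucleus, at 12.30.

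Gpr34, a microglial receptor for lysophosphatidylserine, had 7.88 and 6.96 in the substantia nigra, 7.08 and 7.60 in the globus pallidus and 6.86 and 7.13 in the medial caudate putamen. These overlapped, and the substantia nigra was the 1 region whose Gpr34 mean reached the median array value, so the levels elsewhere are dim and no order is read among them. The microglia list, with 11 of 12 measured, was highest in the globus pallidus at 9.61, with 9.42 in the substantia nigra, and lowest in the cerebellar lobe at 7.82. Over these mostly dim values it correlated with Gpr34 at 0.78 in 52 regions and at 0.86 in the 49. In the retina the list was 9.36 and Gpr34 read 6.30 and 5.49. Of the 14 glial and immune receptors measured, 9 were below the median array value in every region, among them Gpr84, Gpr171 and Gpr18. Over all genes the share that dim was 22.8%.

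**Figure D5:**
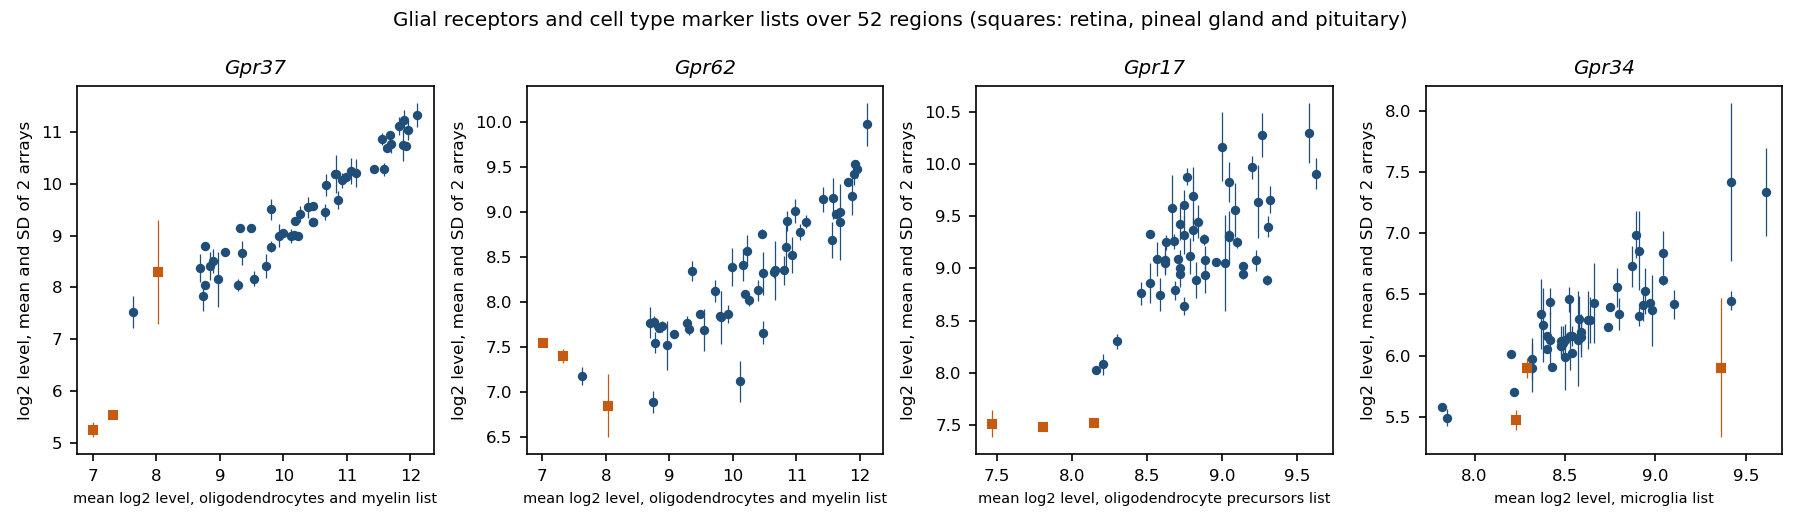
Each panel sets a receptor (vertical axis, log2 mean and SD of 2 arrays) against the mean log2 level of a marker list (horizontal axis) in the 52 regions. Squares are the retina, pineal gland and pituitary. Points for Gpr37 and the myelin list rise together (r = 0.95), those for Gpr62 do so with more scatter (r = 0.88), and the retina square for Gpr34 sits low for its list level of 9.36.

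Higher calls in the retina and the endocrine glands were no more frequent among the receptors than among all genes: 6 (10.2%) against 12.7% in the retina, 2 (3.39%) against 7.28% in the pineal gland and 3 (5.08%) against 5.82% in the pituitary. The retina held the peaks of 5 of the 39 receptors (12.8%, against 20.8% of all such genes), the pineal gland of 2 (5.13%, against 12.7%) and the pituitary of 0 (against 8.33%). Gpr143, the melanosome protein lost in ocular albinism, had 10.37 and 10.35 in the retina and 7.80 and 7.54 in the pineal gland. Elsewhere it stayed near the median array value, between 6.76 and 7.40 on single arrays. The retina exceeded the other regions by 3.21 ± 0.08 for Gpr143 (9.24-fold, limma adjusted p = 9.13e-43), in a division where 12.7% of all genes were called higher. Rgr (r = 0.992), Mlph (0.983) and Upk3bl (0.983) were the genes most like it. The pituitary arrays of Gpr143 lay in the range of the brain regions.

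The 5 other receptors called higher in the retina were Gpr160 by 1.60 ± 0.10, Gpr146 by 1.49 ± 0.10, Gpr65 by 1.14 ± 0.09, Gpr180 by 1.11 ± 0.07 and Gpr137b by 1.08 ± 0.08. Gpr65 was below the median array value in every region, the retina included, and with such genes left out the retina had 5 higher calls. The 2 retina arrays were far apart for Gpr160, at 7.01 and 7.97, and for Gpr65, at 6.03 and 5.21. Without the first retina array the differences of Gpr65 and Gpr137b were 0.73 and 0.97, and without the second that of Gpr180 was 0.97, each short of 2-fold. With the probe sets of a gene averaged, the retina differences were 0.56 for Gpr146 and 0.71 for Gpr137b. The retina arrays had the highest levels of the endothelium list (10.61), the border macrophage list (8.38) and the meninges list (11.23), and the part of those cells was not tested. Gpr65 is a proton sensor of immune cells and Gpr137b a lysosomal protein.

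Gpr180 was high in the libraries of all 3 organs. It had 10.08 and 10.15 in the pineal gland, 9.92 and 9.81 in the pituitary and 9.65 and 9.92 in the retina. The next region, the cerebellar lobe, had a mean of 9.03. The retina libraries also held pituitary markers, as given above, and the part of pituitary RNA in the retina level of Gpr180 was not tested. The pineal gland exceeded the other regions by 1.44 ± 0.07 (7.28% of all genes were called there) and the pituitary by 1.19 ± 0.07 (5.82%). Gpr146, a receptor known for its effect on plasma cholesterol through the liver, was called higher in the pineal gland too, with 9.39 and 9.50 there and 9.44 and 9.47 in the retina. Its other 3 probe sets had ranges of 0.76 to 1.01, and with the mean of all sets the pineal difference was 0.65. Gpr19 came close to a call in the pineal gland, at 10.49 and 10.29, with a difference of 0.96 ± 0.06.

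Gpr153 and Gpr162 are paralogs and orphan receptors. Gpr153 had 10.63 and 10.69 in the mediodorsal thalamus and 10.64 and 10.50 in the pituitary, which overlapped, and it was called higher in the pituitary by 1.34 ± 0.11. It was lowest in CA1, at 7.91 and 7.93, and in the hippocampal formation it fell by 1.16 ± 0.05, where 0.813% of all genes were called lower. Gpr162 was broad, within 2-fold of its peak in 40 of 52 regions. Its highest arrays were in the posterior olfactory bulb, at 11.43 and 11.62, and it fell by 1.65 ± 0.08 in the retina, to 8.90 and 9.42.

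Lower calls in the retina covered receptors with otherwise unlike maps. Beside Gpr22 (which fell by 2.43 ± 0.12), Gpr85 and Gpr162, they took in Gpr17, Gpr176, Gpr6, Gpr62, Gpr173, Gpr101, Gpr135, Gpr83, Gpr158, Gpr155, Gpr75, Gpr61, Gpr12 and Gpr37. Without the second retina array the difference of Gpr155 was -0.75, and without the first that of Gpr158 was -0.93. With probe sets averaged, Gpr62 (-0.75), Gpr173 (-0.88) and Gpr135 (-0.95) fell short of 2-fold. In the low-control regions so did Gpr37 (-0.59), Gpr83 (-0.91), Gpr12 (-0.98), Gpr61 (-0.98) and Gpr155 (-0.99). With region means as the samples the limma adjusted p was 0.0905 for Gpr6, 0.128 for Gpr101 and 0.189 for Gpr37. Gpr22, Gpr85, Gpr162, Gpr17, Gpr176 and Gpr75 kept their retina calls under every alternative. In the pineal gland the largest falls were those of Gpr37, Gpr85 and Gpr22, which fell by 2.40 ± 0.12. In the pituitary Gpr22 fell by 2.09 ± 0.12, next to Gpr37. With the retina, pineal gland and pituitary left out altogether, all 36 calls among these receptors that could still be made in the 13 remaining divisions were made.

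Several of the receptors were broad, which does not mean that they changed little: Gpr85, 1 of them, had a range of 3.93. Of the 39, 11 stayed within 2-fold of their peak in at least 26 regions (28.2%, against 45.0% of all such genes). Gpr75 did so in 51 regions, with 8.30 and 8.31 in the cerebellar vermis and 6.65 and 6.64 in the retina as the exception. Gpr61, Gpr45 and Gpr137 did so in 48, 45 and 46 regions. Gpr182, a scavenger of chemokines on vessel endothelium, had 8.02 and 7.83 in the supraoptic nucleus and 7.93 and 7.90 in the preoptic area with basal forebrain, which overlapped. These were also regions with high levels of the meninges list (10.30 and 10.26), and that list correlated with Gpr182 at 0.82 over the 52 regions. The intracellular proteins Gpr107, found in the Golgi apparatus, and Gpr89, a Golgi anion channel, had ranges of 0.66 and 0.60, short of a call, and no order of regions is read for them.

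A total of 12 receptors (20.3%, against 22.8% of all genes) never rose above the median array value in any region mean. They include the zinc sensor Gpr39, the lymphocyte receptor Gpr174 and the immune receptors Gpr15, Gpr18, Gpr33, Gpr84, Gpr132 and Gpr171. Levels this dim are poorly resolved on an array, and no order of regions is read for them. Of these 12, Gpr174, Gpr65 and Gpr39 passed the F test with a range of at least 2-fold. With no fold limit 58 of the 59 receptors passed (98.3%, against 95.1% of all genes), the exception being Gpr15 with an adjusted p of 0.119.

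Related genes put these counts in scale. Of 50 receptors that once carried a Gpr name and were since renamed, 39 were measured, 23 passed the F test with a 2-fold range and the median range was 1.30. Over all genes 60.3% passed and the median range was 1.24. S1pr5, a sphingosine phosphate receptor of oligodendrocytes, was called higher in the thalamus, the hindbrain with cerebellar nuclei and the spinal cord, the same 3 divisions as Gpr37. Of 26 G protein alpha subunits, arrestins and receptor kinases, 24 were measured and 21 passed, with a median range of 2.33. Gnal, the stimulatory alpha subunit of the striatum, was called higher in the striatum and the thalamus. Gnat1, Gnat2 and Sag, which serve phototransduction, were called higher in the retina. Gnat2 and Sag were called higher in the pineal gland too, where both had their highest level.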

How the data were processed

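RNA from 52 regions, with 2 samples each, was hybridised to 104 Affymetrix arrays. The deposited values are log2 intensities, summarised by RMA per the submitters' processing notes; the genome build and RMA version are not given in the sources used here. Values were used as deposited. Probe sets were named from the platform annotation: of 45101, 34945 had 1 gene symbol, 932 several, 9160 none, and 64 were controls; those with several or none were not used. limma 3.58.1 in R 4.3.3 fitted a mean per region (52 residual and 7.87 prior degrees of freedom), and a moderated F test and 16 division contrasts were adjusted by Benjamini-Hochberg over all 18193 genes. Members, lists and tests were chosen with earlier results of these data known. Receptors that passed the F test and rose above the median of all values, 7.39, were named in order of range, others as members of a list; the 3 genes most like a receptor had the highest Pearson r among genes passing the same limits. The correlations carry no p-value, and their points share arrays. On simulated data, with 100 genes changed by 1.5 and 100 by 2 on the log2 scale in a division, among 18193, all were recovered. These changes exceeded the 2-fold limit and no other spread between regions was simulated, so the recovery does not bear on such spread in the data. Same-numbered samples showed no general pairing: over 1326 pairs of regions, the median correlation of their deviations was -0.000385, from -0.503 to 0.524. It was over 0.1 in 327 pairs. A median near 0 cannot exclude pairing, since the numbering may differ between regions and positive and negative values would then cancel. The main fit treats the samples of different regions as independent. The hybridisation controls formed a low set of 21 regions (9.65 to 10.49) and a high set of 30 (10.84 to 11.47). The preoptic area, at 7.56, was outside both, and its value is not read as a measure of hybridisation. Promoter sequences came from RefSeq on GRCm38.p6, which held 45 of the 59. Alternatives covered scaling, probe set choice, thresholds, the variance model, replicates left out and doubtful libraries.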

Additional observations from a re-analysis of the deposited data

How the results depend on the processing

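The 81 called pairs of receptor and division (32 higher, 49 lower) were recomputed under each alternative. All 81 kept their direction and call with arrays centred on their median, a trended and robust variance model, and array weights. They also did so with a common adjustment over all divisions, no preoptic arrays, and a replicate block, which changed no call. Without the retina 58 of the 58 pairs that remained did so. The platform symbols gave the same fit, since no symbol had been updated, so that setting could not change a call. Quantile normalization ended 1 call, averaging probe sets 12, and region means as the samples 13. With probe sets averaged, 1 receptor was called higher in the hippocampal formation (Gpr22), 1 in the pineal gland, 1 in the spinal cord, 4 in the retina and 4 in the hypothalamus, with 43 lower pairs and 39 receptors by the F test. With region means as the samples, 0 were called in the septum, pallidum and basal forebrain and 1 in the amygdala.

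Without a fold threshold the higher calls numbered 14 in the septum, pallidum and basal forebrain, 15 in the cerebral cortex, 11 in the olfactory bulb, 15 in the striatum, 15 in the hippocampal formation, 15 in the amygdala, 11 in the thalamus, 14 in the habenula, 13 in the pineal gland, 21 in the hypothalamus, 13 in the pituitary, 13 in the midbrain, 7 in the hindbrain, 13 in the cerebellar cortex, 7 in the spinal cord and 14 in the retina, and lower pairs 304 against 49; small, precise differences make up the excess. Leaving out 1 array per region of a division gave 0 to 1 higher calls in the olfactory bulb, 0 to 1 in the midbrain, 2 to 4 in the pituitary, 2 to 3 in the pineal gland and 5 to 6 in the retina, 41 to 43 receptors by the F test and 47 to 50 lower pairs. The F test called 38 receptors without the retina, 35 without retina, pineal gland and pituitary, 39 in the low-control and 29 in the high-control regions. For none of the counts in this section was the share of all genes computed under the same setting. They show how the calls depend on the setting and are not compared with all genes.

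Chosen after the data were seen, the 21 regions with low hybridisation controls gave 2 higher calls in the cerebral cortex, 6 in the hypothalamus, 1 in the midbrain and 2 in the cerebellar cortex, but 10 of the 65 called pairs that could be fitted were lost, among them Gpr37 in the retina (-0.59) and olfactory bulb (-0.70) and Gpr6 in the hindbrain (-0.84). The 30 with high controls gave 1 in the hippocampal formation, where Gpr161 reversed to -0.82 (adjusted p = 7.71e-09) because the dentate gyrus alone remained. The set of regions differs in these fits, so the other regions they are compared with differ too. With 2 arrays per region, single regions rest on few measurements, and no order was read for receptors under 7.39 in every region.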
